A study of Mus musculus with 11 samples.

Results

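The mitochondrial ribosomal protein genes were taken as the protein-coding mouse genes whose symbol is Mrps or Mrpl followed by a number and at most 1 letter, with pseudogenes left out. The count table held 78 of them among its 53700 genes, and 77 had enough reads to be tested. They encode 26 proteins of the small ribosomal subunit and 51 of the large one, with 1 more protein, Mrps36, that kept the name but is now known as a component of the alpha-ketoglutarate dehydrogenase complex. Mrps18a and Mrps30 sit in the large subunit in spite of their names.

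RNA was sequenced in bulk from short-term haematopoietic stem cells (ST-HSC) sorted by flow cytometry out of the bone marrow of C57BL/6j mice. All host mice carried transplanted bone marrow from an acute myeloid leukaemia (AML) with a Flt3-ITD allele and TET2 KO, so that this background is common to every group. Cytarabine and doxorubicin are DNA-directed cytotoxic drugs, and quizartinib inhibits the FLT3 kinase. There were 11 libraries in 4 groups. The KO treated group (titled Cre_pos_Treated, libraries 257, 263 and 276) came from CXCL12 KO hosts given the 3 drugs together. The WT treated group (Cre_neg_Treated, libraries 252, 262 and 266) came from CXCL12 WT hosts given the same drugs. The KO vehicle group (Cre_pos_Veh, libraries 249 and 275) and the WT vehicle group (Cre_neg_Veh, libraries 240, 253 and 265) came from CXCL12 KO and CXCL12 WT hosts given vehicle. CXCL12 is a chemokine that marrow stromal cells make and that holds stem cells in their niche. The driver of Cre, the age of the hosts, and the doses and times of the drugs are not given in the sources used here. The labels do not say that each library came from a separate animal, and the p-values then speak of the spread between these libraries alone, which may be technical.

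Mitochondria keep a small genome of their own that encodes a few core proteins of the respiratory chain, and they translate these on a dedicated ribosome. The RNA of that ribosome is transcribed from mitochondrial DNA, whereas its proteins are all encoded in the nucleus, made in the cytosol and imported. Many of them have a counterpart in bacteria and others are found only in mitochondria. In blood, mitochondrial translation is known as a process on which leukaemia stem cells lean more than most normal progenitors, and stem cells raise their respiration when they leave quiescence.

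Gene counts ran from 8.13 to 31.1 M per library. Treatment and depth cannot be told apart, because each treated library was deeper (at least 22.4 M) than each vehicle library (at most 22.2 M). Across all genes tested, the level of a gene in a library relative to its mean over the 11 libraries ran with transcript length. The Spearman rho was -0.22, 0.35 and 0.36 in KO treated libraries 257, 263 and 276, and -0.29, -0.40 and -0.33 in WT treated libraries 252, 262 and 266. It was 0.24 and 0.23 in the KO vehicle libraries and 0.02 to 0.11 in the WT vehicle libraries, as a description over 16586 genes that share their libraries. Reads outside genes were highest in library 257, at 30.4%. Cxcl12, the gene of the host genotype, was at 2.90, 1.20 and 4.63 CPM in KO treated libraries 257, 263 and 276 and at 0.866, 1.59 and 0.826 CPM in WT treated libraries 252, 262 and 266. It was at 0 and 5.36 CPM in KO vehicle libraries 249 and 275, and at 14.4, 0 and 0.123 CPM in WT vehicle libraries 240, 253 and 265, so that its level in the sequenced cells does not separate the genotypes. All 12 stem and progenitor markers were detected, but Slamf1 was at 0 in 4 libraries, and the 10 granulocyte markers, which belong to another lineage, summed to 10222 CPM or more in every library (CPM, counts scaled to a common library size by TMM). The 10 erythroid markers summed to 37195, 18413 and 88468.5 CPM in the KO treated libraries and to 509 CPM or less in the WT treated ones. In bulk samples, fewer cells of a type and less RNA per cell cannot be told apart.

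Levels were compared between genes as CPM per kilobase of the longest protein-coding transcript, averaged over the 11 libraries. The median of the 77 detected members was 40.5 CPM per kb. Mrpl42 (313.6 ± 174.1 CPM per kb, SD over n = 11 libraries), Mrpl54 (205.5 ± 136.7), Mrpl28 (194.4 ± 109.6) and Mrps21 (169.3 ± 92.9) had the highest levels per kb. Mrpl42 and Mrpl54 are found only in mitochondrial ribosomes, while Mrpl28 and Mrps21 have bacterial counterparts. Within libraries, Mrpl42 was above Mrpl28 and Mrps21 in 11 of 11 and above Mrpl54 in 10 of 11. The other three had no fixed order, Mrpl54 being above Mrpl28 in 4 libraries and above Mrps21 in 7, and Mrpl28 above Mrps21 in 7.

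At the low end were Mrpl47 (8.11 ± 3.85 CPM per kb), Mrps25 (10.9 ± 5.14) and Mrpl1 (11.2 ± 4.20), the last of which corresponds to the protein of the mobile L1 stalk of bacterial ribosomes. For Mrps25, 69.8% of the exonic bases overlap Nr2c2 on the opposite strand. The library kits do not keep the strand, so its value is uncertain. Mrpl53 had a count of 0 in all 11 libraries, where 3 counts would have been 0.0879 CPM (library 263) to 0.369 CPM (library 265), and 88.0% of its exonic bases overlap other annotated genes. With the union of all exons in place of the longest transcript, Mrpl42 moved to rank 19 of 78 and Mrpl33 (rank 8) to rank 67. Mrps34 shares 77.8% of its exonic bases with Mapk8ip3 on the opposite strand and Nme3 on the same strand. Mrpl46 and Mrps11 share exonic bases with each other on opposite strands. Mrps18b (30.5% of its exonic bases), Mrps27 (24.2%) and Mrpl47 (24.2%) also overlap genes on the opposite strand. Mrps18c shares 23.2% with a gene on the same strand. The values of these members are uncertain too, as are those of other members with overlapping exons that are not listed here.

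**Figure D1:**
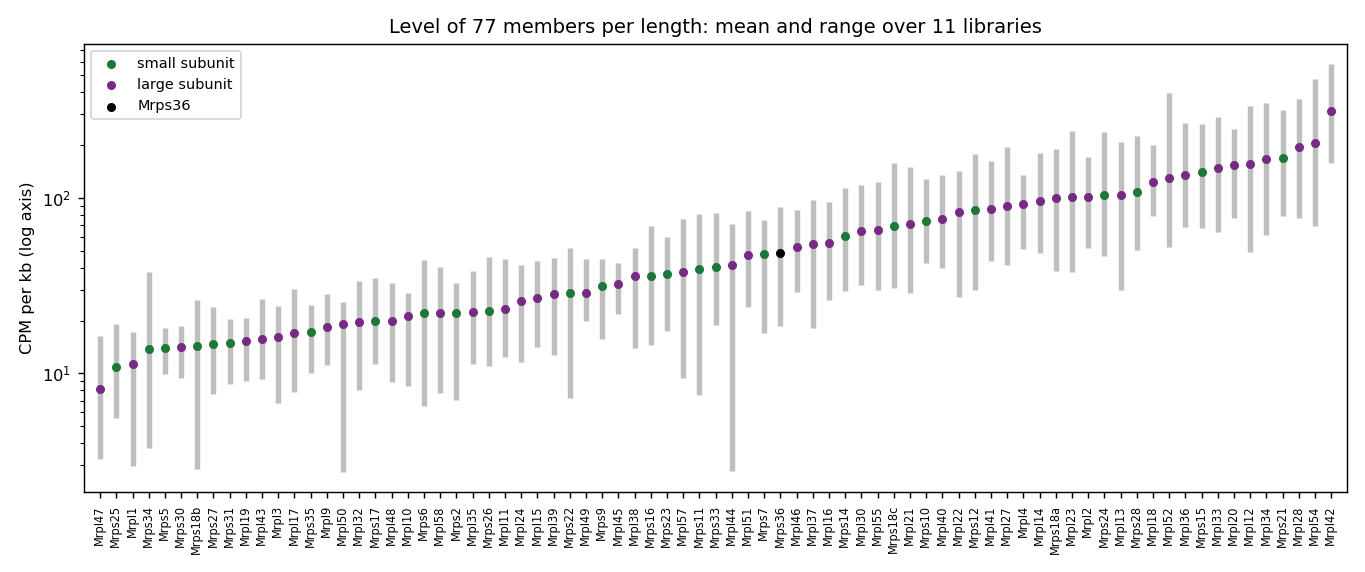
Level of the 77 detected members in CPM per kilobase of the longest transcript (log axis), lowest to highest from left to right. Points are means over 11 libraries and bars run from the lowest to the highest library. Members of both subunits are found at low and at high levels, and the range runs from 8.11 (Mrpl47) to 313.6 CPM per kb (Mrpl42).

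Some members are named for a special part in the ribosome. Mrpl12, the factor-binding stalk protein, which in human cells is also known to bind the mitochondrial RNA polymerase, was at 156.9 ± 90.9 CPM per kb. Mrpl58, a peptidyl-tRNA hydrolase that frees stalled chains, was at 22.2 CPM per kb and Mrps30 at 14.2. Of the 3 paralogs related to bacterial S18, Mrps18a of the large subunit had 99.97 CPM per kb, Mrps18c had 69.4 and Mrps18b had 14.4, the last 2 in the small subunit. Mrps36 stood at 48.8 CPM per kb, inside the range of the true ribosomal members.

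The members moved together from library to library. Summed over the members, the level was 10280 CPM in KO treated library 257, 3606 CPM in 263 and 3749 CPM in 276. The WT treated libraries 252, 262 and 266 held 9362, 8619 and 9258 CPM. The sum was 4347 and 4182 CPM in KO vehicle libraries 249 and 275, and 4163, 4300 and 4876 CPM in WT vehicle libraries 240, 253 and 265. The 3 WT treated libraries and KO treated library 257 lay high, at 8619 CPM or more, and the other 7 lay at 4876 CPM or less.

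The same held gene by gene. In the WT treated libraries, 75, 75 and 74 of the 77 tested members lay above their own mean over the 11 libraries, and so did 74 in KO treated library 257. Only 2 and 6 members did so in KO treated libraries 263 and 276, 16 and 6 in the KO vehicle libraries, and 14, 19 and 30 in the WT vehicle libraries. The share of all genes above their own mean was not counted, so these counts have no background of their own. The median over all genes tested ranged from -0.45 to 0.25 on the log2 scale over the 11 libraries, against -0.63 to 0.88 for the median over the members. For all genes it was 0.11, 0.23 and 0.13 in KO treated libraries 257, 263 and 276. In WT treated libraries 252, 262 and 266 it was 0.25, 0.18 and -0.05. The pattern was not particular to these genes. All genes tested under 1 kb had medians of 0.81, -0.34 and -0.56 in KO treated libraries 257, 263 and 276. Their medians were 0.91, 0.61 and 0.58 in WT treated libraries 252, 262 and 266, and -0.66 to -0.10 in the vehicle libraries. Cytosolic ribosomal proteins had medians of 1.30, -0.54 and -0.86 in the KO treated libraries and 1.03, 0.56 and 0.45 in the WT treated ones. They had -0.76 to 0.05 in the vehicle libraries.

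**Figure D2:**
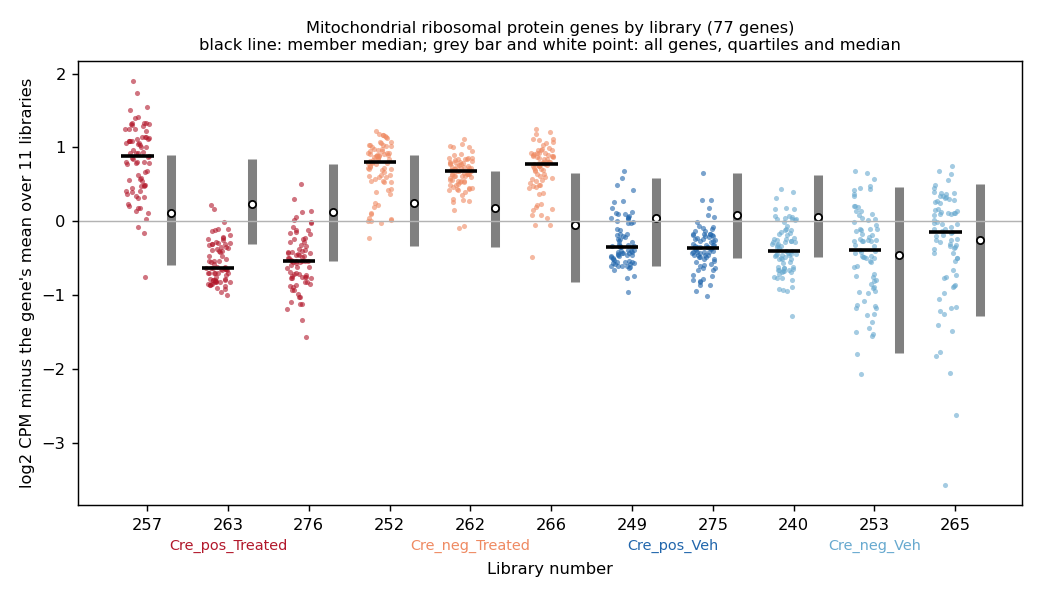
Level of each of the 77 tested members in each library as log2 CPM minus the gene's mean over the 11 libraries (y axis), with libraries grouped on the x axis as KO treated (Cre_pos_Treated), WT treated (Cre_neg_Treated), KO vehicle (Cre_pos_Veh) and WT vehicle (Cre_neg_Veh). Black lines are member medians, and grey bars with white points are the quartiles and median of all genes tested; the member medians are 0.68 to 0.80 in the WT treated libraries and 0.88, -0.63 and -0.54 in the KO treated ones.

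The proportion of the 2 subunits varied little between libraries. The summed CPM of the 26 small-subunit members over that of the 50 tested large-subunit members was 0.403 ± 0.00905 in KO treated and 0.410 ± 0.00565 in WT treated libraries (SD, n = 3 each). It was 0.423 ± 0.00355 in KO vehicle (n = 2) and 0.398 ± 0.0237 in WT vehicle libraries (n = 3), with no library outside 0.377 to 0.425.

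In CXCL12 WT hosts, treated libraries held more mitochondrial ribosomal protein RNA than vehicle libraries, with a median log2 fold change of 1.02 over the 77 members against 0.09 over all 16639 genes tested. The difference was positive in 75 members and negative in 2, Mrps2 (-0.15) and Mrps27 (-0.12), a pentatricopeptide repeat protein of the small subunit. Among all genes, 52.6% were positive and 47% negative. No member passed edgeR's quasi-likelihood test at a Benjamini-Hochberg adjusted p under 0.05 (0% of all genes did), and the smallest adjusted p of a member was 0.172. At an unadjusted p under 0.05, 39 members were higher and 0 lower, where the shares over all genes were 10.1% and 8.11%. DESeq2 called 8 members at the same threshold, all higher, where it called 3.62% of all genes higher, and limma voom called 0, with 58 members at an unadjusted p under 0.05. The share of all genes at an unadjusted p under 0.05 was not counted for DESeq2 or limma voom, here or in the comparisons below. Such counts of members are therefore no result about the members.

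Mrps12, the counterpart of the bacterial protein S12 at the decoding centre, had the smallest p. It was at 128, 129.6 and 123 CPM in WT treated libraries 252, 262 and 266, against 42.5, 32.1 and 26.4 CPM in WT vehicle libraries 240, 253 and 265. The groups did not overlap, and the log2 fold change was 1.91 ± 0.46 (SE, edgeR adjusted p = 0.172). Mrpl36, whose bacterial counterpart is a small zinc-binding protein of the large subunit, was at 215, 198 and 246 CPM in WT treated and 80.1, 66.4 and 69.1 CPM in WT vehicle libraries. Its groups lay apart as well, with a log2 fold change of 1.61 ± 0.40 (edgeR adjusted p = 0.172).

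Mrpl13 averaged 212 ± 27.0 CPM in WT treated and 59.5 ± 20.5 CPM in WT vehicle libraries (SD, n = 3 each), a log2 fold change of 1.83 ± 0.47. Mrps28 averaged 139 ± 19.9 and 42.9 ± 3.69 CPM in the same groups, a log2 fold change of 1.69 ± 0.48. Mrpl35 averaged 137 ± 4.53 and 52.6 ± 7.94 CPM, a log2 fold change of 1.39 ± 0.40. The last 3 genes had edgeR adjusted p-values of 0.172, 0.173 and 0.173, and none had overlapping groups.

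In all, 60 members were higher in every WT treated library than in any WT vehicle library and 0 were lower in every one, where 17.5% and 10.1% of all genes were. The 17 members whose groups overlapped included Mrpl52, Mrpl54, Mrps30, Mrps2, Mrps27 and Mrpl45, which is known to lie near the exit of the nascent chain and to hold the ribosome at the inner membrane. Mrpl45 was at 88.6 ± 11.4 CPM in WT treated and 85.6 ± 26.5 CPM in WT vehicle libraries, a log2 fold change of 0.05. By subunit, the median was 1.11 over the 26 small-subunit members and 0.99 over the 50 large-subunit ones, and no large-subunit member was negative. Members with a bacterial counterpart (45) had a median of 1.08, and the 29 found only in mitochondria had 0.85. Mrps36, which is no part of the ribosome, had a log2 fold change of 1.21.

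Neither group of this comparison contains KO treated library 257, but it enters the shared estimate of spread, and without it 34 members passed edgeR's test, all higher, where 3.45% of all genes were called higher. With no filter on low counts 7 passed (0.382% of all genes were called higher), and with the percent of reads outside genes as a term of the model 45 passed (5.83%). Reads outside genes moved with this comparison, at 10.1%, 6.33% and 16.6% in WT treated libraries 252, 262 and 266, against 28.7%, 17.97% and 28.8% in WT vehicle libraries 240, 253 and 265. Every treated library had the lower share, so that the term overlaps with treatment here and the part of RNA quality in the result was not tested. WT vehicle libraries 253 and 265 also had few genes detected, at 13589 and 14206. Library 240 had 17578, and the WT treated libraries had 17207 to 22121. Library 253 held 20.4 M gene counts. The part of the number of genes detected in the result was not tested. The 5 T and NK markers summed to 974, 1123 and 1702 CPM in WT treated and to 449, 705 and 674 CPM in WT vehicle libraries, with 4 of them at 0 in each WT vehicle library. The sum in each WT vehicle library was thus that of Nkg7, the only marker of the 5 at 0 in no library. The 5 B cell markers summed to 69.0 to 97.0 CPM in WT treated and 51.2 to 58.3 CPM in WT vehicle libraries. Of these B cell markers, 2, 0 and 0 were at 0 in WT treated and 3, 1 and 4 in WT vehicle libraries. The 5 stroma markers summed to 31.2, 25.03 and 23.3 CPM in WT treated, against 45.8, 82.2 and 42.5 CPM in WT vehicle libraries. Of these 5, 0, 1 and 2 were at 0 in WT treated and 2, 2 and 3 in WT vehicle libraries, and Pecam1 alone was at 0 in no library. Whether these sums reflect such cells, and the part of such cells in the result, was not tested.

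**Figure D3:**
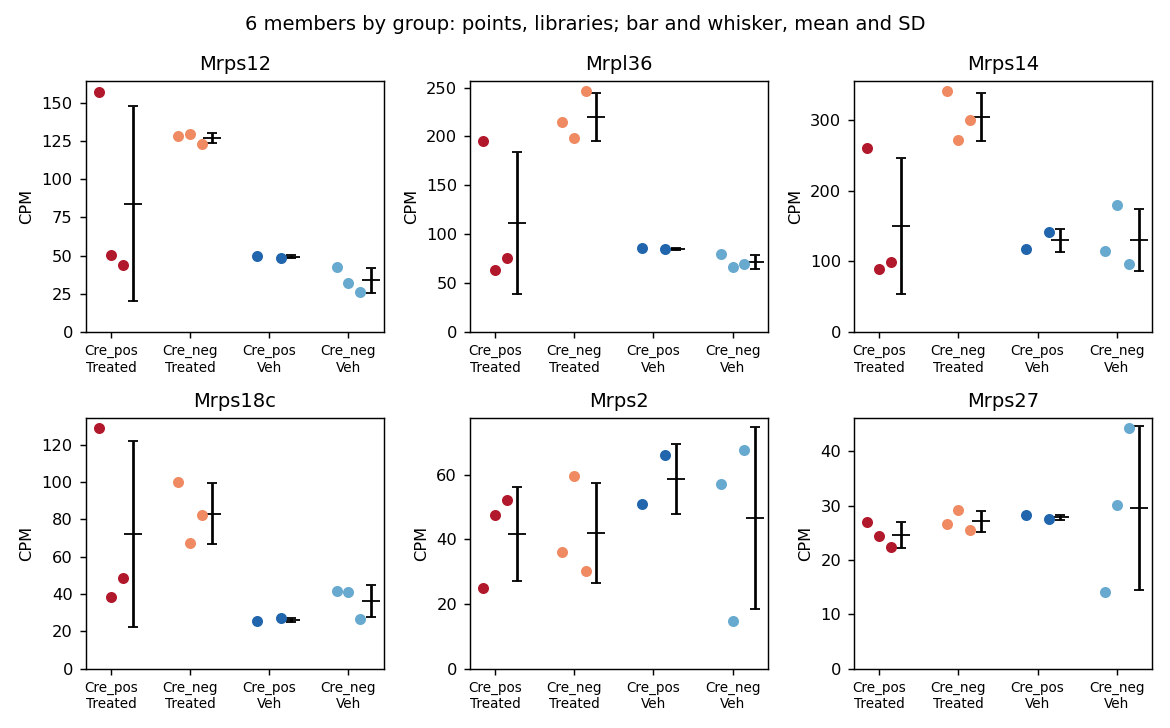
CPM of 6 members by group, from left to right KO treated (Cre_pos_Treated, n = 3), WT treated (Cre_neg_Treated, n = 3), KO vehicle (Cre_pos_Veh, n = 2) and WT vehicle (Cre_neg_Veh, n = 3). Points are libraries and bars with whiskers are means and SDs. Mrps12, Mrpl36 and Mrps14 have 1 KO treated library (257) far above the other 2, at 157, 195 and 260.5 CPM; Mrps27 lies between 22.3 and 27.0 CPM in KO treated, against between 25.5 and 29.2 CPM in WT treated libraries.

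Promoter sequences of the members were described as well, and whether they have a part in the shared movement was not tested. RefSeq windows from 250 bases before to 50 bases after the start of transcription (GRCm38.p6) matched 69 of the 78 members with 75 windows. The ETS motif CCGGAAG, the type of site bound by the factor Gabpa, stood on either strand in 34.7% of the member windows and in 8.86% of all 32851 windows (11.6% of the windows of protein-coding genes). The YY1 motif AAGATGG stood in 17.3% of member windows and 6.34% of all windows, and GCATGCGC, the core of the NRF1 motif, in 10.7% and 2.71%. The E-box CACGTG was in 9.33% against 7.15%, and TATAAA in 6.67% against 13.6%. A match describes letters and does not show a bound site.

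The windows of 3 of the members with the smallest p and of the 2 negative members are shown from 120 bases before the start of transcription to 30 bases from it, 5′ to 3′ on the strand of the gene, with matches to the ETS, YY1 and E-box motifs on either strand in capitals.
Mrps12 (chr7:28741792-28741941, minus strand): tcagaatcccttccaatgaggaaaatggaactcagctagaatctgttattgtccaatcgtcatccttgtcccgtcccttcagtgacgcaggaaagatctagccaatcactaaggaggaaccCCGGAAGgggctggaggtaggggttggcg
Mrpl36 (chr13:73330889-73331038, plus strand): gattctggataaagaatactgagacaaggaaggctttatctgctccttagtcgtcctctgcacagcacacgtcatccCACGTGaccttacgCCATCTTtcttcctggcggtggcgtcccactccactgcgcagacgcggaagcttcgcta
Mrpl35 (chr6:71823755-71823904, minus strand): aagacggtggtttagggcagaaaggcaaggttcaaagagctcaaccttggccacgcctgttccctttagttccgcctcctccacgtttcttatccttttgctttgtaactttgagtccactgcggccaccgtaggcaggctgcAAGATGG
Mrps2 (chr2:28467946-28468095, plus strand): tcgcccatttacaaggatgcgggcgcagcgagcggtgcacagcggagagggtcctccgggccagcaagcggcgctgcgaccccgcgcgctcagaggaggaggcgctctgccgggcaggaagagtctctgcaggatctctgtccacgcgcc
Mrps27 (chr13:99344666-99344815, plus strand): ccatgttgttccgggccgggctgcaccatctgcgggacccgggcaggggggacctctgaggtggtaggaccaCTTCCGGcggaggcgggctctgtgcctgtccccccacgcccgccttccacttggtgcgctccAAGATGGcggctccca
Motifs stand in windows of both kinds: Mrps27, with a fold change near 0, holds an ETS and a YY1 match, whereas Mrps2 holds none of the 3 motifs. The 25 tested members with an ETS match had a median log2 fold change of 1.14 between WT treated and WT vehicle libraries, and the 43 tested members with a window but no match had 1.02. For the NRF1 core the medians were 1.15 over 8 members with a match and 1.03 over 60 without. For YY1 they were 0.99 over 13 and 1.05 over 55.

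Members are short transcripts, and transcript length moved with this comparison. The longest transcript had a median of 1339 bases over the 77 tested members (463 for Mrpl52 to 7300 for Mrpl17) and of 2669.5 bases over all genes tested with a length. Below 1 kb, the median log2 fold change between WT treated and WT vehicle libraries was 1.20 over 23 members and 0.91 over 2308 genes of that length. From 1 to 2 kb it was 0.99 over 29 members and 0.58 over 3611 genes. At 2 kb or longer it was 0.94 over 25 members, against -0.28 over 10667 genes.

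Long members stood further from genes of their own length than short members did. The contrast with long genes was as large when each gene was given the median length of its transcripts, with 0.93 over 18 members and -0.32 over 8025 genes at 2 kb or longer. For Mrpl17 the 2 lengths differ widely, at 7300 bases for the longest transcript and 743.5 for the median one. When the trend of each library with length was removed, the member median was 0.17 and that of all genes was -0.30, which left the members 0.47 above all genes in place of 0.94. With the trend removed, 52 members were positive and 25 negative, and Mrpl35 (1.43) and Mrpl17 (1.40) kept differences of that size while Mrpl46 was at -0.03.

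**Figure D4:**
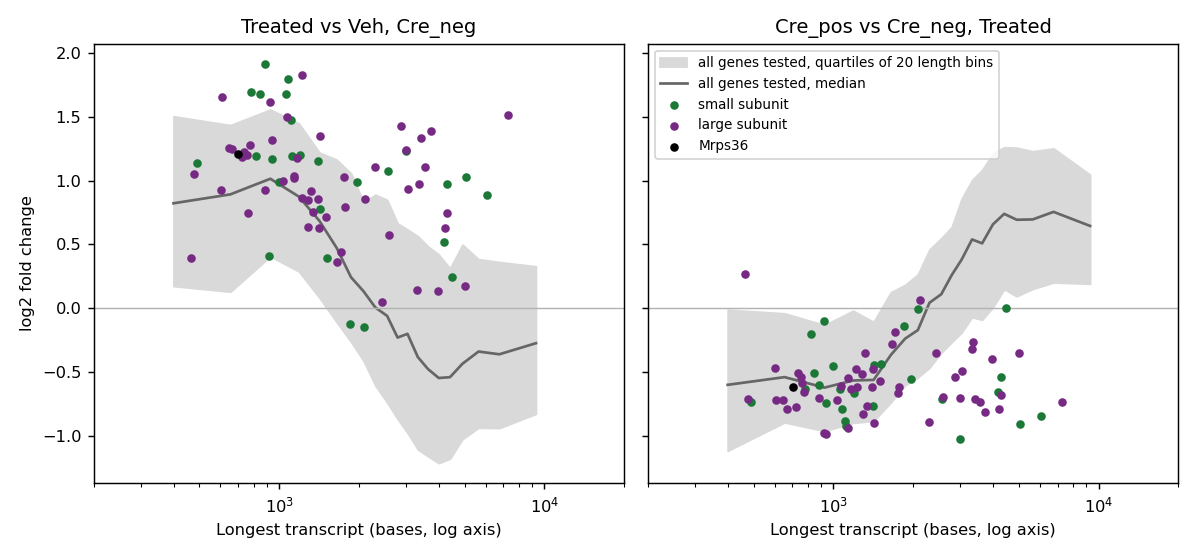
Log2 fold change of the 77 tested members (y axis) by length of the longest transcript in bases (x axis, log), for treated over vehicle in CXCL12 WT hosts on the left and for CXCL12 KO over WT in treated hosts on the right. The grey line and band are the median and quartiles of all genes tested in 20 bins of length. Members at 2 kb or longer have medians of 0.94 on the left and -0.68 on the right, where genes of that length have -0.28 and 0.44.

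Genes that work with the mitochondrial ribosome did not share one direction in this comparison. The 13 mitochondrially encoded proteins, the ribosome's products, were all lower in WT treated than in WT vehicle libraries, with a median log2 fold change of -1.44. Of these, mt-Nd5 was at 1268, 991 and 8823 CPM in WT treated libraries 252, 262 and 266, against 17089, 14852 and 10794 CPM in WT vehicle libraries 240, 253 and 265. Library 266 lay far above the other 2 treated libraries for this gene, and the log2 fold change was -1.95 ± 0.74 (edgeR adjusted p = 0.216). Other subunits of respiratory complex I followed, mt-Nd6 (-1.75 ± 0.75) and mt-Nd4 (-1.56 ± 0.69). The ribosome's own RNAs had -1.83 ± 0.74 for mt-Rnr2 of the large subunit and -1.11 ± 0.74 for mt-Rnr1 of the small one. The groups of mt-Rnr2 overlapped, at 10707, 5536 and 32315 CPM in WT treated, against 72032, 69249 and 30966 CPM in WT vehicle libraries. The 5 ribosomal proteins with other names had a median of 0.75, with Chchd1 at 1.26 ± 0.49, Aurkaip1 at 0.997 ± 0.484 and Dap3 at 0.44 ± 0.29.

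Assembly factors had a median of 0.19 over 26 genes, with Malsu1 at 1.24 ± 0.52, Mpv17l2 at 1.08 ± 0.53 and the rRNA methyltransferase Mettl15 at 1.30 ± 0.69. The list of translation factors had a median of 0.02 over 15 genes, with Mief1 counted though it is no translation factor. Among them, Tsfm, which recycles the elongation factor Tufm, had 1.28 ± 0.35 and Mtfmt, which formylates the initiator tRNA, 2.59 ± 1.14, while Gfm1, the elongation factor of translocation, had -1.31 ± 0.49. The 20 mitochondrial aminoacyl-tRNA synthetases and their partners had a median of -0.44, with 4 positive and 16 negative, where 52.6% of all genes were positive and 47% negative. Iars2 (-1.09 ± 0.46) and Vars2 (-1.07 ± 0.52), for isoleucine and valine, were negative, and Qrsl1, a subunit of the amidotransferase that completes glutaminyl-tRNA, was positive (2.10 ± 0.94).

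The 16 genes of mitochondrial transcription and RNA processing had a median of -0.14, with 7 positive and 9 negative. The 3 with the smallest p were positive and their groups lay apart. Tfam, which packages mitochondrial DNA and starts its transcription, was at 64.6, 83.9 and 64.2 CPM in WT treated, against 37.1, 48.1 and 17.4 CPM in WT vehicle libraries, a log2 fold change of 1.05 ± 0.37 (edgeR adjusted p = 0.192). Hsd17b10, a subunit of mitochondrial RNase P, had 1.16 ± 0.45. Mterf1a had 4.51 ± 1.54 from low levels, at 2.75, 2.32 and 9.19 CPM in WT treated, against 0.582, 0 and 0 CPM in WT vehicle libraries. The 10 regulators named for mitochondrial gene expression had a median of -0.39, with 2 positive and 8 negative. Esrra, a nuclear receptor of genes for respiration, was at 7.15, 4.52 and 8.36 CPM in WT treated, against 10.7, 14.2 and 17.9 CPM in WT vehicle libraries. Its groups lay apart, with a log2 fold change of -1.09 ± 0.58 (edgeR adjusted p = 0.329), ahead of Nrf1 (-0.58 ± 0.38) and Yy1 (-0.41 ± 0.31). The 81 proteins of the cytosolic ribosome had a median of 0.80 with 79 positive, which became -0.21 with the length trend removed. None of these companion genes passed the threshold with edgeR's test. The shares over all genes were 52.6% positive and 47% negative. Only the cytosolic ribosome is given here with the length trend removed, and length moved with this comparison.

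The comparison named in the series title sets treated CXCL12 KO hosts against treated CXCL12 WT hosts. Mitochondrial ribosomal protein RNA was lower in KO treated libraries for 74 of 77 members, with a median log2 fold change of -0.63 against 0.10 over all genes, of which 46.1% were negative and 53.9% positive. No member passed the threshold (0% of all genes did), and the smallest edgeR adjusted p of a member was 0.434. At an unadjusted p under 0.05, 9 members were lower and 0 higher, where 3.5% and 7.13% of all genes were. DESeq2 called 0 members, with 6 at an unadjusted p under 0.05, and limma voom with quality weights called 65, all lower, where it called 12.1% of all genes lower.

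The KO treated libraries did not form one level. Mrps17, a small-subunit protein with a bacterial counterpart, was at 131, 57.0 and 63.9 CPM in KO treated libraries 257, 263 and 276, against 141, 155 and 177 CPM in WT treated libraries 252, 262 and 266. Library 257 lay just under the WT treated range and libraries 263 and 276 far below it, with a log2 fold change of -0.91 ± 0.34 (SE, edgeR adjusted p = 0.434). Mrps14 had the most negative value, -1.03 ± 0.42 (edgeR adjusted p = 0.440), with 260.5, 88.9 and 98.8 CPM in KO treated, against 341, 273 and 300.3 CPM in WT treated libraries. Library 257 again lay close to the WT treated group.

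Mrpl46, found only in mitochondrial ribosomes, was at 80.4, 35.3 and 33.2 CPM in KO treated libraries and at 97.1, 94.6 and 93.9 CPM in WT treated ones, a log2 fold change of -0.94 ± 0.37. Mrpl39, which is related in sequence to threonyl-tRNA synthetases, averaged 54.8 ± 21.3 CPM in KO treated, against 102 ± 3.37 CPM in WT treated libraries (SD, n = 3 each). Mrps10 averaged 70.0 ± 34.3 and 133 ± 8.27 CPM in the same groups. Mrpl36 had a log2 fold change of -0.98 ± 0.39. It was at 195, 63.5 and 75.3 CPM in KO treated and at 215, 198 and 246 CPM in WT treated libraries. Its groups lay only just apart, at 195 CPM in library 257 against 198 CPM in library 262. Each of these 4 genes had non-overlapping groups and an edgeR adjusted p of 0.434.

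Altogether 13 members were lower in every KO treated library than in any WT treated one and 0 were higher, where 9.56% and 9.71% of all genes were. Mrpl52, the member with the shortest transcript, had the highest value at 0.27, with 183, 39.7 and 26.3 CPM in KO treated, against 107, 47.0 and 52.1 CPM in WT treated libraries. Small-subunit and large-subunit members had the same median, -0.63. Members with a bacterial counterpart had -0.63 and those found only in mitochondria -0.62.

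Leaving out library 257 changed the outcome. The median became -1.39 (all genes 0.05), and 42 members passed the threshold with edgeR's test, all lower, where 4.88% of all genes were called lower. Mrpl36 then had -1.67 (adjusted p = 0.00854), Mrps17 -1.39 (adjusted p = 0.0111) and Mrpl46 -1.48 (adjusted p = 0.0123). With library 257 left out and the length trend removed as well, the median was -0.62 and 1 member was called, where 0.11% of all genes were called lower. The labels give no reason to leave this library out, and its high share of reads outside genes (30.4%) is a measurement whose part in the result was not tested.

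Length moved with this comparison too. The median log2 fold change below 1 kb was -0.64 over 23 members and -0.59 over all genes of that length. At 2 kb or longer it was -0.68 over 25 members, against 0.44 over all genes. With the length trend removed, the member median was -0.31 (all genes 0.03), with 66 members negative and 11 positive.

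Erythroid markers differed between the same groups, 10 of 10 being higher in every KO treated library than in any WT treated one. Their sum was 37195, 18413 and 88468.5 CPM in KO treated libraries 257, 263 and 276, against 203 to 509 CPM in the WT treated libraries. The 10 granulocyte markers summed to 33556, 10222 and 23886 CPM in KO treated libraries 257, 263 and 276 and to 30374, 40867 and 149795 CPM in WT treated libraries 252, 262 and 266. The 12 stem and progenitor markers summed to 1366.5, 1859.8 and 1124 CPM in KO treated, against 1869.7, 1864 and 1242 CPM in WT treated libraries, with 1 marker at 0 in library 257. The 5 monocyte markers summed to 2560, 805 and 2056 CPM in KO treated libraries 257, 263 and 276, against 4142, 3644 and 4775 CPM in WT treated libraries 252, 262 and 266. The 5 B cell markers summed to 65.8, 35.8 and 36.9 CPM in KO treated, with 2, 2 and 0 of them at 0, against 69.0, 97.0 and 94.3 CPM in WT treated libraries, with 2, 0 and 0 at 0. Both sums were lower in every KO treated library than in any WT treated one, for the B cell markers by 65.8 against 69.0 CPM at the closest. The 5 stroma markers summed to 31.9, 67.1 and 63.1 CPM in KO treated, with 0, 2 and 0 of them at 0. They summed to 31.2, 25.03 and 23.3 CPM in WT treated libraries, with 0, 1 and 2 at 0. No erythroid, granulocyte or monocyte marker was at 0 in any library, and the part of these cells in the result was not tested.

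Among the companion genes, the 10 regulators were higher in KO treated libraries in 9 cases, with a median of 0.74, where 53.9% of all genes were higher. Bins of all genes with a median length of 3994 bases or longer had medians of 0.64 to 0.75 in this comparison. The regulators were not set against genes of their own length. Nrf1, a transcription factor named for its action on nuclear genes of the respiratory chain, was at 35.7, 65.5 and 85.9 CPM in KO treated libraries 257, 263 and 276 and at 27.1, 45.6 and 27.5 CPM in WT treated libraries. Its log2 fold change was 0.90 ± 0.38 (edgeR adjusted p = 0.449), with the lowest KO treated value in library 257. Pprc1, a coactivator related to PGC-1, had 1.46 ± 0.69 and Gabpa 1.05 ± 0.60. Ptcd3, a pentatricopeptide repeat protein of the small subunit with another naming pattern, had 1.10 ± 0.54, while Aurkaip1 (-0.68 ± 0.48) and Chchd1 (-0.63 ± 0.48) were negative. Of the synthetases, Iars2 had 1.21 ± 0.46 and Vars2 1.15 ± 0.52. On the list of translation factors, Gfm1 (0.90 ± 0.48) was positive and the recycling factor Mrrf was negative (-0.71 ± 0.43). Mief1, which was on that list but is no translation factor, had 1.29 ± 0.56. Among assembly factors, Rbfa (-0.80 ± 0.34) and Mtg2 (-0.80 ± 0.49) were negative and the helicase Dhx30 was positive (0.98 ± 0.44). The mitochondrial RNA polymerase Polrmt had 1.58 ± 0.88 and the tRNA-processing nuclease Elac2 1.05 ± 0.60, whereas Hsd17b10 had -0.76 ± 0.45.

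The mitochondrially encoded proteins had a median of 0.25, with mt-Nd4l at 1.46 ± 1.47, mt-Nd5 at 0.50 ± 0.72 and mt-Co1 at 0.46 ± 0.74, and mt-Rnr2 and mt-Rnr1 had 0.36 and -0.02. The median was 0.27 over the transcription and RNA processing genes, 0.24 over the synthetases, -0.09 over the translation factors, -0.33 over the assembly factors and -0.39 over the cytosolic ribosomal proteins. None of these passed the threshold with edgeR's test.

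**Figure D5:**
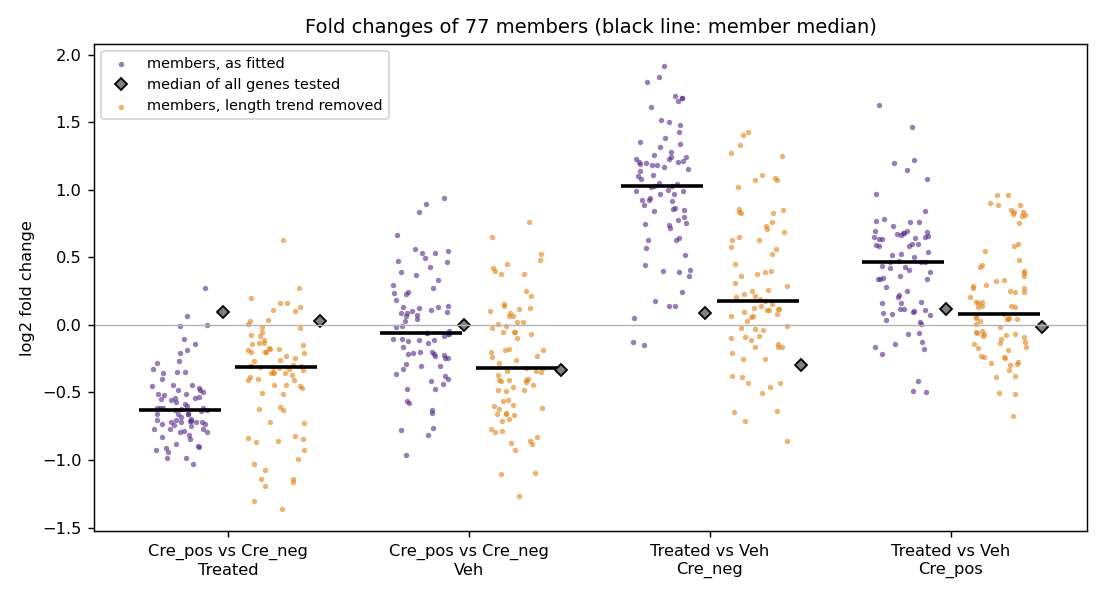
Log2 fold change of each of the 77 tested members (y axis) in 4 comparisons (x axis), as fitted (purple) and after each library's trend with length was removed (orange). Black lines are member medians and diamonds are medians of all genes tested. As fitted, the medians are -0.63, -0.06, 1.02 and 0.46 from left to right, and with the trend removed they are -0.31, -0.32, 0.17 and 0.08.

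In CXCL12 KO hosts, treated libraries had a member median of 0.46 over vehicle libraries (all genes 0.12), with 67 members positive and 10 negative, where 56.1% of all genes were positive and 43.7% negative. No member passed the threshold (0% of all genes did), the smallest edgeR adjusted p being 1. Mrps18c, which takes the place of bacterial S18 in the small subunit, was the 1 member at an unadjusted p under 0.05 (2.7% of all genes were higher at that level and 0.974% lower). It was at 129, 38.5 and 48.5 CPM in KO treated libraries 257, 263 and 276, against 25.3 and 26.8 CPM in KO vehicle libraries 249 and 275, a log2 fold change of 1.47 ± 0.51 (edgeR adjusted p = 1). All 3 treated values lay above both vehicle values, with library 257 far above the rest. DESeq2 and limma voom also called 0 members, with 2 and 0 at an unadjusted p under 0.05.

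The 5 members with the smallest p all moved with library 257. Without it the log2 fold change of Mrps18c was 0.74, against 1.81 without library 263. Mrpl52 was at 183, 39.7 and 26.3 CPM in KO treated and 29.3 and 24.3 CPM in KO vehicle libraries, and its groups overlapped. Mrpl12 averaged 233 ± 181 CPM in KO treated (n = 3) and 105 ± 7.33 CPM in KO vehicle libraries (SD, n = 2). Without library 257, Mrpl52 and Mrpl12 had log2 fold changes of 0.30 and 0.28. Mrpl23, at the exit of the nascent chain, and Mrpl54 had log2 fold changes of 1.20 and 1.22, which became -0.09 and -0.01 without library 257. Groups lay apart upwards for Mrps18c, Mrpl12 and Mrps30 (12.3% of all genes) and downwards for Mrpl10, Mrpl44 and Mrps27 (10.1% of all genes). Without library 257 the member median was -0.24 (all genes 0.06), with 12 members positive and 65 negative. The 10 erythroid markers summed to 37195, 18413 and 88468.5 CPM in KO treated libraries 257, 263 and 276. They summed to 296 and 14378 CPM in KO vehicle libraries 249 and 275. The 10 granulocyte markers went the other way, at 33556, 10222 and 23886 CPM in the KO treated libraries. They summed to 38456 and 59822.5 CPM in the KO vehicle libraries. Both sums lay apart between the groups, and the part of these cells in the result was not tested.

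The difference between the treatment responses in KO and in WT hosts was tested as an interaction, which shares its libraries with the comparisons above. Its median was -0.65 over the members and 0.11 over all genes, with 69 members negative (46.4% of all genes) and 8 positive (53.6% of all genes). No member passed the threshold (0% of all genes did), the smallest edgeR adjusted p being 0.767. Mrpl49 (-1.01 ± 0.45) and Mrps23 (-1.13 ± 0.52), both found only in mitochondrial ribosomes, were lower at an unadjusted p under 0.05, where 3.27% of all genes were lower and 3.04% higher. DESeq2 and limma voom called 0 members, with 0 and 51 at an unadjusted p under 0.05. The share of all genes at that level was not counted for these fits, so the 51 is no result about the members.

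Mrpl49 was at 53.2, 35.3 and 45.4 CPM in KO treated and 51.2 and 52.3 CPM in KO vehicle libraries, against 50.3, 75.7 and 79.4 CPM in WT treated and 45.4, 35.1 and 37.8 CPM in WT vehicle libraries. Its levels overlapped between treated and vehicle in KO hosts and lay apart in WT hosts. Mrpl36, Mrpl39 and Mrpl17 followed with interaction values of -1.22, -1.08 and -1.29, which were -1.91, -1.44 and -2.09 without library 257. Without library 257 the median was -1.23, and with the length trend removed it was -0.13 (all genes 0.34), which left the members -0.47 from all genes in place of -0.76.

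In vehicle hosts, the summed level of mitochondrial ribosomal protein RNA was 4265 ± 117 CPM in KO (n = 2) and 4446 ± 378 CPM in WT libraries (SD, n = 3). Both KO values lay inside the range of the WT values. As a share of gene counts, without TMM scaling, the members held 0.478 ± 0.0242% in KO vehicle and 0.409 ± 0.0678% in WT vehicle libraries. The direction of the summed level thus depended on the scaling. The median log2 fold change was -0.06 over the members and 0.00 over all genes, with 34 positive (48.7% of all genes) and 43 negative (50% of all genes). No member passed the threshold (0% of all genes did), with 0 at an unadjusted p under 0.05, where 4.8% of all genes were higher and 1.98% lower. DESeq2 and limma voom called 0 members, with 1 and 2 at an unadjusted p under 0.05. The smallest edgeR adjusted p of a member was 0.733.

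Mrps30, a large-subunit protein found only in mitochondria, was at 31.1 and 33.6 CPM in KO vehicle libraries 249 and 275, against 52.1, 42.7 and 57.5 CPM in WT vehicle libraries 240, 253 and 265. Both KO values lay below all WT values, with a log2 fold change of -0.65 ± 0.32 (edgeR adjusted p = 0.733). Mrpl10, the base of the stalk that carries Mrpl12, was at 49.0 and 42.2 CPM in KO vehicle and 34.4, 14.5 and 37.3 CPM in WT vehicle libraries, a log2 fold change of 0.67 ± 0.41. Both KO values lay above the WT values, of which library 253 was lowest, and without it the log2 fold change was 0.35.

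Mrpl50 (0.84 ± 0.58) was at 54.0 and 35.9 CPM in KO vehicle and 30.9, 38.6 and 5.79 CPM in WT vehicle libraries, and its groups overlapped. Its value was 0.37 without WT vehicle library 265 and 1.28 without WT vehicle library 253. The S18 paralogs split, with Mrps18b at 0.89 ± 0.64 (0.55 without library 265), Mrps18c at -0.48 and Mrps18a at -0.56. Mrpl58 was at -0.82 ± 0.59 and Mrpl57 at 0.23. In all, 9 members lay apart upwards (13.2% of all genes) and 9 downwards (7.47%). The member median changed sign with the percent of reads outside genes as a term of the model (0.46), with limma voom (0.04) and without WT vehicle library 265 (0.08), so no direction is given for the members as a whole. The 5 T and NK markers summed to 834 and 835 CPM in KO vehicle and to 449, 705 and 674 CPM in WT vehicle libraries, with 4 markers at 0 in each WT vehicle library and 3 in KO vehicle library 249. In each WT vehicle library the sum was that of Nkg7 alone. The 5 megakaryocyte markers summed to 36.1 and 355 CPM in KO vehicle and to 34.4, 5.19 and 12.3 CPM in WT vehicle libraries. The 5 B cell markers summed to 28.6 and 40.7 CPM in KO vehicle, against 58.3, 52.2 and 51.2 CPM in WT vehicle libraries. Of these B cell markers, 3 and 1 were at 0 in KO vehicle and 3, 1 and 4 in WT vehicle libraries. The sum in library 265 was thus that of Cd79b alone. The part of these cells in the result was not tested.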

How the data were processed

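Per the labels' protocols, the Qiagen RNeasy Plus Micro kit gave the RNA, and SMARTer Ultra Low Input v4 cDNA was made into Nextera XT libraries. The submitters' processing notes name STAR 2.7.9a, HTSeq (version given as 0.6.7), Trim Galore 0.6.7, bcl2fastq and DESeq2, and build GRCm39, without roles. The deposited table holds raw counts per Ensembl gene, not normalized by the authors, for 53700 genes, and its 5 HTSeq summary lines were left out of library sizes and tests. The share of reads on the line for genes that overlap was 2.34% to 6.31%. The strand setting and annotation release are not given in the sources used here.

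Symbols and transcript lengths came from GENCODE M21, an earlier build, which matched 97.1% of the gene IDs, so no coordinates are given for the counted genes. Promoter windows came from RefSeq (GRCm38.p6).

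All 11 libraries were fitted in 1 model of 4 groups with edgeR 4.0.16 in R 4.3.3 (filterByExpr, TMM, robust quasi-likelihood), with Benjamini-Hochberg adjustment over 16639 genes in each of 5 contrasts and a threshold of 0.05. The biological coefficient of variation was 0.783. SEs follow from the test, CPM use TMM-scaled library sizes, and deviations use log2 CPM with a prior count of 2. Groups lie apart when every library of one exceeds every library of the other. The length trend of a library was a lowess curve (span 0.3), removed as an offset. With no molecular identifiers, a floor of 3 counts covers counting error alone. The pipeline was tested on simulated counts.

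Alternatives were DESeq2 1.42.0 and upper-quartile scaling, no filter, a mean CPM of at least 10, the DESeq2 Wald test, limma 3.58.1 voom with quality weights, no robust option, fewer libraries, the percent of reads outside genes as a term, union exon length and the length trend. The trend with median transcript length, and without library 257, were added after the data were seen. Members, lists and tests were chosen with earlier results of these data known. Named members are, for each contrast, the 5 with the smallest unadjusted p, the highest 4 and lowest 3 per kb, the S18 paralogs, Mrps36, Mrpl12, Mrpl58, Mrpl57, Mrps30 and the shortest and longest; of each companion list, the 3 with the smallest p in the contrasts of WT treated with WT vehicle and of KO treated with WT treated libraries, of which 1 gene is not reported here. Mrps14, Mrps2, Mrps27, Mrpl44, Mrpl45, Mrps34, Mrps11 and Mrpl33 were named after their values were seen. Mphosph6, which is no mitoribosome assembly factor, was taken off that list after its values were seen. Mief1, which is no translation factor, stayed on the list of translation factors and in its medians.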

Additional observations from a re-analysis of the deposited data

How the results depend on the processing

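Across the alternatives, 215 of the group results stayed on their side and near their value, 17 moved and 7 changed sign. A median counted as near when it shifted by less than 0.460 log2, the pooled SD of the library medians. Counts of calls with no member called in either fit counted as stayed too. Of the named members' results, 562 stayed, 29 came to pass the threshold and 4 changed sign. A named member's result stayed when its sign and its side of the threshold held, whatever the change in size. These tallies therefore say little about the size of the differences.

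For KO over WT in treated hosts, limma voom called 65 members with a median of -1.28, and removing the length trend without library 257 left 1 call. Leaving out each library in turn gave 0 to 42 calls and medians of -1.39 to -0.35. For KO over WT in vehicle hosts the median was 0.039 with limma voom (all genes 0.15), 0.17 without libraries 253 and 265 together and 0.46 with the percent of reads outside genes as a term, and -0.11 to 0.076 leaving out each library.

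For treated over vehicle in WT hosts, 7 members were called with no filter on low counts, 8 by DESeq2 and 45 with that term (0.382%, 3.62% and 5.83% of all genes were called higher), and the last had a median of 1.66. Leaving out each library gave 0 to 34 calls and medians of 0.99 to 1.07. The median was 0.17 with the length trend removed, 0.38 with the median transcript length in its place and 0.17 without library 257 as well, where all genes stood at -0.30, -0.29 and -0.31. For treated over vehicle in KO hosts it was -0.20 with limma voom, -0.27 with the length trend removed without library 257, and -0.24 to 0.79 leaving out each library. Mrpl23 and Mrpl54 came to -0.13 and -0.072 in the fit without the trend and library 257, and to -0.085 to 1.64 and -0.0096 to 1.66 leaving out each library (lowest without 257). The interaction median was -1.25 with limma voom, -1.46 with that term, -0.13 with the length trend removed, and -1.23 to -0.35 leaving out each library. The cause of these shifts was not tested.

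No paired analysis was possible because the groups share no replicate numbers. Groups hold 2 or 3 libraries, and the biological coefficient of variation was 0.783. Depth, at 8.13 M gene counts in WT vehicle library 265, limits the lowest members most.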
